A study of Mus musculus with 87 samples.

Results

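Gene expression was compared between the lung and the heart of mouse embryos at embryonic day 11.5 (E11.5) in the line that carries a deletion of boundary B2, a border between topologically associating domains (TADs) near Tbx5, Tbx3, Rbm19 and Lhx5. All RNA-seq libraries labelled as lung or heart of this line were taken, which gave 20 of the 64 RNA-seq libraries and of the 87 samples in the series. The 12 lungs were 6 wild-type and 6 homozygous for the B2 deletion, and the 8 hearts were 4 wild-type and 4 homozygous, all on the FVB strain and all at E11.5. The lungs were labelled as 6 male and 6 female, while the sex of the hearts was not given. Each library is named here by the code in its label, beginning with E for lungs and with A for hearts. No label ties a heart to a lung of the same embryo, and no 2 libraries of a group held the same counts. Each library was treated as 1 embryo, which the labels do not state. The authors give 2 biological replicates per genotype in 1 passage and at least 2 in another. The lung codes begin with E5403 (2 lungs), E5406 (6 lungs) or E5420 (4 lungs). The meaning of these codes is not given, and they were not used in the fit.

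At this stage the lung is a pair of buds that branch into the surrounding mesenchyme. Its endoderm is specified by the transcription factor Nkx2-1, and the mesenchyme signals to it through Wnt2, Wnt2b and Fgf10 while the endoderm returns Shh. The heart is already beating, with separate atrial and ventricular programmes of contractile genes run by Nkx2-5, Gata4, Tbx5, Tbx20, Hand1 and Hand2. Several families of regulators, among them the T-box, NK homeobox, GATA and Iroquois genes, have members that act in one organ and members that act in the other.

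Every tested sarcomere gene was higher in the heart, while 15 of 23 tested regulators of lung endoderm, 13 of 20 genes of the foregut mesenchyme, 13 of 18 Hox genes and 9 of 17 genes of the hedgehog pathway were higher in the lung by more than 2-fold. The sides of this contrast were unequal in size. Sarcomere genes differed by a median log2 difference of -8.71, whereas the regulators of lung endoderm differed by a median of 3.28, both as lung over heart. Tbx5, which the study named for this line, had overlapping levels in both organs.

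Of 15381 genes tested, 6410 were higher in lung (41.7%) and 5990 were higher in heart (38.9%) in edgeR's quasi-likelihood test with Benjamini-Hochberg adjustment at an adjusted p of 0.05. So large a share was called at any size of difference that a second test asked whether the difference exceeded 2-fold. It called 3277 genes (21.3%) for the lung and 2667 genes (17.3%) for the heart. Counts of genes below refer to this second test, and each is to be read against these shares. Levels are given in CPM, counts scaled to the size of each library, as the lowest, the median and the highest library of an organ, and differences as log2 of lung over heart, with genotype as a covariate.

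The lungs also differed from the hearts in the kind of RNA that their libraries held, and this moved with the organ in every library. Mitochondrial ribosomal RNA took 0.341 to 13.1% of the counts in lungs and 0.0362 to 0.0589% in hearts. The structural RNAs 7SL and 7SK took 0.626 to 20.9% in lungs and at most 0.00578% in hearts, and the replication-dependent histone genes, whose messages carry no poly(A) tail, took 0.172 to 5.39% in lungs and at most 0.0118% in hearts. In the other 44 RNA-seq libraries the histone genes reached at most 0.0248% and the 7SL and 7SK RNAs at most 0.0823%. Thus the B2 lungs stood apart from every other library of the series, and organ and library type cannot be told apart in this comparison. Lungs E5420-07 and E5420-09, both wild-type females, stood apart further. In E5420-07 the 7SL and 7SK RNAs made up 20.9% of all counts (5.98 to 7.11% in the remaining 10 lungs). In E5420-09 Gm42418 and Lars2 made up 87.7% (2.57 to 8.58% in the remaining 10). Total counts ran from 8391553 to 31793440 in lungs and from 18867742 to 22089592 in hearts.

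Whole classes of RNA were called for the lung. All 85 tested small noncoding RNAs were called beyond 2-fold for the lung, as were 63 of the 64 tested histone genes. Among the remaining 13883 protein-coding genes the calls were balanced, with 2572 genes (18.5%) for the lung and 2524 genes (18.2%) for the heart. Within those, the difference followed transcript length. In the fifth of genes with the shortest transcripts (360 to 2036 bases) the median log2 difference was -0.90, and it was 1.12 in the fifth with the longest (5371 bases and more). The share called for the lung went from 4.98% to 46.7% over these 5 groups, and the share called for the heart from 37.5% to 6.77%.

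**Figure D1:**
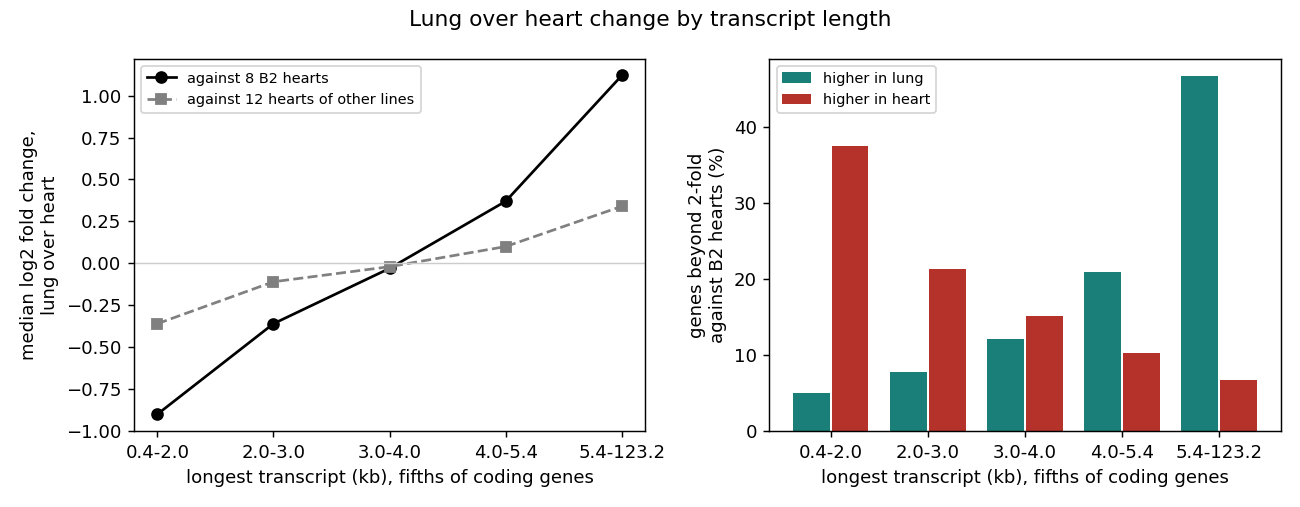
Left, median log2 difference of lung over heart for protein-coding genes in 5 groups of longest transcript (kb), against the 8 B2 hearts (solid line) and against 12 hearts of other lines (dashed line); right, the percent of each group beyond 2-fold for either organ against the B2 hearts (bars). The medians against the B2 hearts climb from -0.90 to 1.12, and those against the other hearts from -0.36 to 0.34.

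For this reason a pair of further comparisons is given beside many of the results. In the first, the same 12 lungs were set against 12 hearts of the B3, B5, B6 and B7 lines. The B3 and B5 hearts were wild-type or homozygous for the deletion of their own line, and the B6 and B7 hearts were all homozygous. Genotype was again a covariate, so homozygous stood for the B2 deletion in lungs and for other deletions in these hearts. In the second, chosen after seeing the data, each library's trend on transcript length was removed before the test, among nuclear protein-coding genes without histones. The contrast of sarcomere genes, with 37 of 37 tested members beyond 2-fold for the heart, was the same in both. In the hearts of other lines the histone genes took at most 0.0159% of counts and the 7SL and 7SK RNAs at most 0.0753%. Organ and library type therefore cannot be told apart in that comparison either.

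The labels of both organs were checked against markers. The 8 lung markers (Nkx2-1, Foxa1, Foxa2, Shh, Cdh1, Epcam, Tbx4 and Foxf1) summed to 333 to 728 CPM in lungs and to 1.77 to 39.8 CPM in hearts. The 7 heart markers (Nkx2-5, Tbx20, Myh6, Myl7, Actc1, Tnnt2 and Nppa) summed to 11589 to 21813 CPM in hearts and to 10.6 to 39.1 CPM in lungs. Neither sum overlapped between the organs. The median heart held 4.27% of the median lung's lung markers, and the median lung held 0.138% of the median heart's heart markers.

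**Figure D2:**
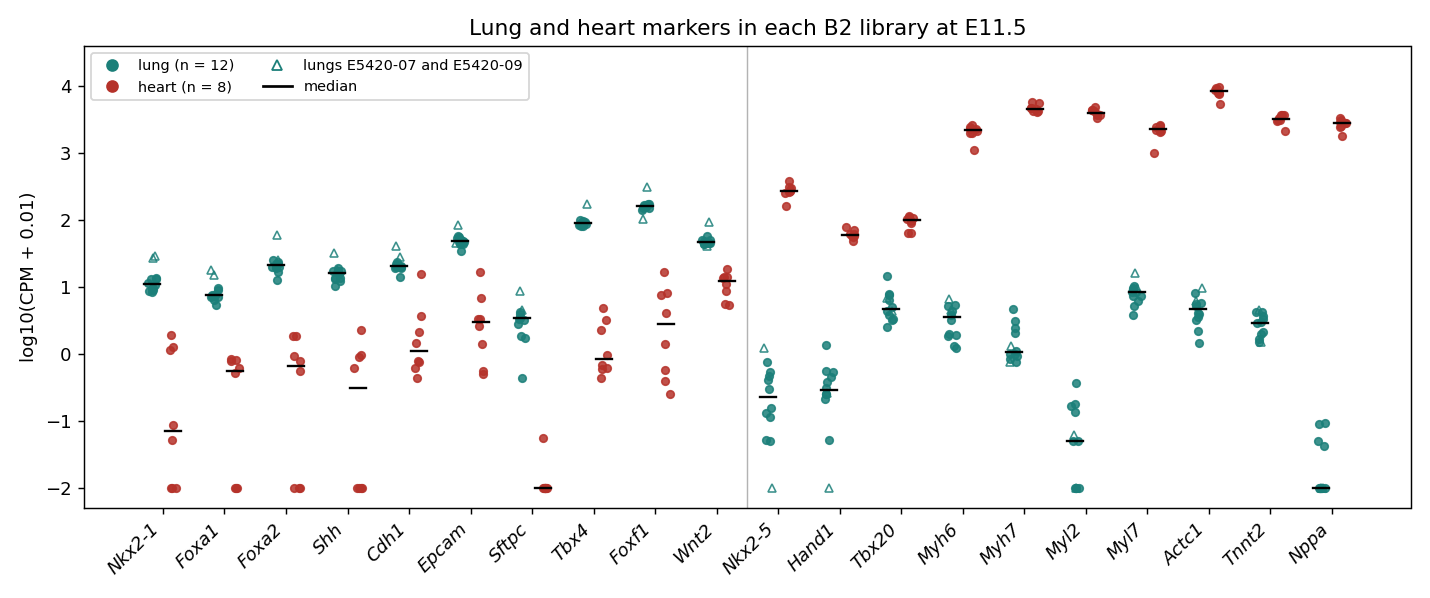
Level of 10 lung genes (left) and 10 heart genes (right) as log10(CPM + 0.01), with each library as a point, the median of each organ as a line and lungs E5420-07 and E5420-09 as open triangles. The heart markers lie far apart between the organs, while several hearts hold lung genes above the bottom of the axis, and Cdh1 in heart A58 (15.7 CPM) reaches the range of the lungs.

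The hearts themselves varied in lung markers. In hearts A54, A55 and A59 the 8 markers summed to 2.62, 1.77 and 3.07 CPM, and Nkx2-1 and Shh had no counts. In hearts A53, A56 and A57 the sum was 16.2, 15.5 and 17.9 CPM, and in A58 and A60 it was 39.8 and 34.7 CPM. Heart A58 was the most unlike the others. Its heart markers gave the lowest sum, 11589 CPM against 18242 to 21813 CPM, and it had more Alb (183 CPM), Krt5 (43.7 CPM), Crabp1 (142 CPM) and Epcam (16.4 CPM) than any other heart. These genes mark liver, stratified epithelium, neural tissue and epithelium in general. The fold differences of lung genes therefore rest on hearts in which such transcripts were present at unequal levels; fewer cells of a type and less RNA per cell cannot be told apart in libraries from whole organs.

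**Figure D3:**
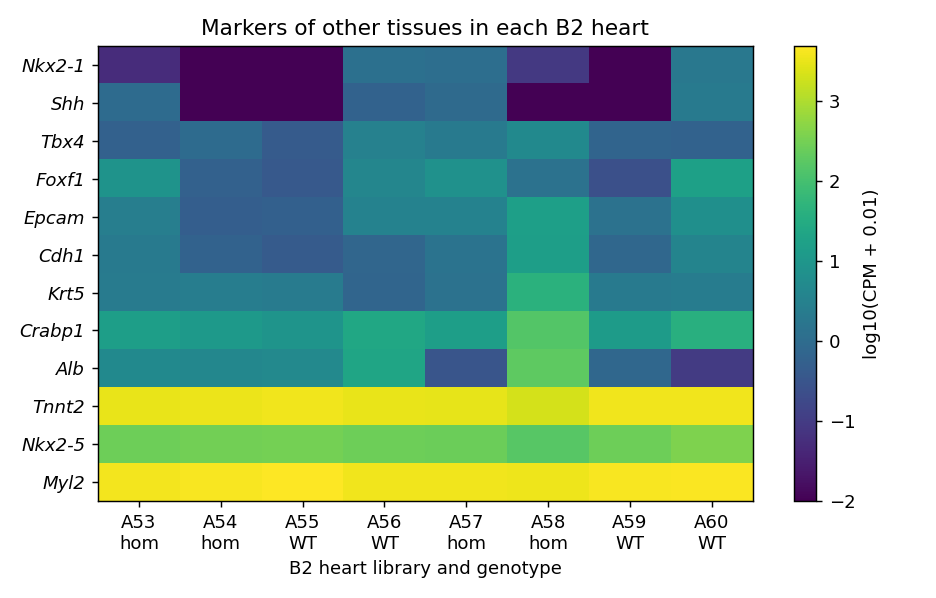
Level of 9 genes of other tissues and of 3 heart genes (rows) in each of the 8 B2 hearts (columns, with genotype), coloured by log10(CPM + 0.01). Alb, Krt5 and Crabp1 are brightest in A58, Foxf1 in A60, and the darkest cells of Nkx2-1 and Shh are hearts with no counts.

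The regulators of lung endoderm included the factors that specify it. Nkx2-1, the first marker of the lung field, had 8.27, 11.1 and 29.1 CPM (lowest, median and highest of 12 lungs) and 0, 0.0591 and 1.88 CPM in the 8 hearts. It was higher in lung by 4.64 on the log2 scale (SE 0.57, adjusted p = 1.73e-07, edgeR). The lungs and hearts did not overlap. Against the hearts of other lines the difference was 1.43 and was not called beyond 2-fold, and single hearts there reached up to 21.9 TPM (levels per transcript length, rescaled to nuclear coding genes), above the lung median of 13.3 TPM.

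Foxa2, a pioneer factor of gut and lung endoderm, ran at 12.7, 21 and 59.1 CPM in lungs and at 0, 0.649 and 1.83 CPM in hearts. The difference was 5.02 (SE 0.52, adjusted p = 1.32e-08, edgeR), with no overlap. Its relative Foxa1 differed by 4.26 and Wnt7b, a Wnt ligand made by lung epithelium, by 4.87. Wnt7b reached 16.2 CPM in heart A58, against a median heart level of 0.951 CPM and a lowest lung of 70.5 CPM. Shh, the signal that the endoderm sends to the mesenchyme, had 10.4, 16.3 and 32.3 CPM in lungs and 0, 0.301 and 2.22 CPM in hearts, a difference of 4.83. Shh differed by 2.40 against the other hearts and no longer passed the test of 2-fold.

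Of the 23 tested endoderm regulators, 15 were beyond 2-fold for the lung and none for the heart. Markers of cells that differentiate later in the alveoli were already counted at low level. Sftpc, which encodes surfactant protein C, had 0.429, 3.35 and 8.71 CPM in lungs and a single count in 1 heart (A57), a ratio of 596 with a counting interval of 107 to 23550. Cldn18, a tight junction gene of lung epithelium, had 6.05 to 14.4 CPM in lungs and at most 1.16 CPM in hearts. The regulators that did not pass were those that both organs express. Sox9, a marker of the branching tips that is also used in cardiac cushions, differed by -0.03 (SE 0.11, adjusted p = 0.833, edgeR), and the FGF target Etv4 by -0.21 (SE 0.18, adjusted p = 0.29, edgeR). Id2, another tip gene, was higher in heart by 0.93 on the log2 scale, under 2-fold.

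Genes of epithelia in general were less uniform. Among 23 tested, 13 were beyond 2-fold for the lung and 3 for the heart. Epcam, a surface adhesion protein of epithelia, had 33.9, 47.7 and 84.6 CPM in lungs and 0.48, 2.94 and 16.4 CPM in hearts (log2 difference 3.56). Cdh1, which encodes E-cadherin, was higher in lung by 2.86 (SE 0.55, adjusted p = 6.33e-05, edgeR), although heart A58 at 15.7 CPM was above the lowest lung at 14 CPM. The splicing regulators Esrp1 and Esrp2 differed by 3.41 and 2.68, and the protease inhibitor Spint1 by 4.49. The 3 genes higher in heart were Perp (-5.55), Krt19 (-3.39) and Spint2 (-1.45). Perp encodes a desmosomal membrane protein, and its 8 hearts lay between 53.0 and 63.7 CPM while the lungs did not exceed 2.01 CPM. The simple keratins Krt8 and Krt18 differed by -0.27 and -0.11, neither past the test. Against the other hearts Cdh1 (1.89), Esrp1 (2.21) and Spint2 (-0.74) were not called beyond 2-fold, nor was Cdh1 among homozygous libraries (1.91). DESeq2 gave no adjusted p for 8 of the 23, among them Epcam, Cdh1, Esrp1 and Esrp2, and called 5 of the remaining 15 for the lung, where edgeR called 6.

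The mesenchyme around the lung buds held contrasts as large as those of the endoderm. Tbx4, the T-box factor of lung and hindlimb mesenchyme, had 79.8, 90.0 and 171 CPM in lungs and 0.42, 0.816 and 4.89 CPM in hearts. The difference was 5.83 (SE 0.41, adjusted p = 2.56e-11, edgeR), larger than that of any lung endoderm regulator except Sftpc. Foxf1, the forkhead factor of foregut mesenchyme that responds to Shh, had 103, 160 and 308 CPM in lungs and 0.24, 2.74 and 16.9 CPM in hearts, a difference of 5.09. Heart A60, with 16.9 CPM, also had the highest Shh and Nkx2-1 among the hearts.

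Of the 20 tested mesenchymal genes, 13 were beyond 2-fold for the lung and 4 for the heart. Wnt2, a ligand required for lung specification, had 41.2, 46.1 and 92.4 CPM in lungs and 5.28, 12.2 and 18.5 CPM in hearts (2.16, adjusted p = 6.26e-09, edgeR). The R-spondin Rspo2, which enhances Wnt signals, differed by 4.44, the homeobox gene Meox2 by 4.69 and Nkx6-1 by 5.22. Fgf10, the ligand that draws out new buds, was expressed in both organs, at 4.83, 7.05 and 10.5 CPM in lungs and 2.09, 2.60 and 4.59 CPM in hearts. Its difference of 1.34 passed the test of 2-fold only narrowly (adjusted p = 0.0186, edgeR) and lost it against the other hearts (0.60) and with the length trend removed (1.16). The 4 genes on the heart side were Hand2 (-4.53), Meox1 (-2.55), Wnt5a (-1.62) and Tcf21 (-1.56), of which Tcf21 lost its call against the other hearts (-1.26) and with the length trend removed (-0.82).

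The anterior Hox genes, which pattern the body axis, separated the organs in 1 direction. Of 39 Hox genes 18 were tested, 13 of them were beyond 2-fold for the lung and none for the heart, with a median difference of 2.56. Hoxa5, needed for lung and tracheal development, had 43.4, 52.8 and 88.1 CPM in lungs and 0.218, 2.01 and 6.48 CPM in hearts (4.35, SE 0.44, adjusted p = 1.08e-08, edgeR). Hoxb6 differed by 6.07 and Hoxb1 by 4.45. Hoxa6 had 0.724 to 6.34 CPM in lungs and no counts in any of the 8 hearts, so that its level was at least 97.4-fold higher in lung, taking 3 counts over the hearts as the limit. The 5 tested members that did not pass were Hoxc4 (1.67), Hoxc5 (1.63), Hoxd3 (0.84), Hoxd4 (0.49) and Hoxd8 (1.07), all of the C and D clusters. Of those that passed, Hoxa7 (1.80) lost its call in 13 of 20 fits that left out 1 library. The other members had too few counts to be tested. Besides the posterior members, of the paralogous groups that pattern limbs and tail, these were Hoxd1, Hoxb7, Hoxb8, Hoxc6 and Hoxc8.

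The hedgehog pathway showed ligand, receptor, effector and target on the lung side. Besides Shh, the receptor Ptch1, itself a target of the pathway, had 142, 176 and 209 CPM in lungs and 8.82, 14.2 and 23.7 CPM in hearts (3.61, SE 0.16, adjusted p = 7.03e-15, edgeR). Hhip, an antagonist induced by the pathway, had 19.3 to 30.5 CPM in lungs and 0 to 1.83 CPM in hearts (5.77). The transcriptional effectors Gli1, Gli2 and Gli3 differed by 3.28, 2.54 and 3.49, and the transducer Smo by 1.70. In all, 9 of 17 tested members were beyond 2-fold for the lung. The 2 on the heart side were Dhh (-3.19), a ligand made by endothelium and Schwann cells, and Scube2 (-2.87), which releases ligand from cells. Ptch1 and Gli3 have long transcripts, and with the length trend removed they differed by 2.02 and 2.22, still past the test of 2-fold.

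The Wnt pathway had members on both sides. Among 44 tested members, 18 were beyond 2-fold for the lung and 8 for the heart. Over all genes the shares were 21.3% and 17.3%, and the 8 for the heart are near the second. The lung side held the targets Axin2 (2.38), Sp5 (2.77), Lef1 (1.98) and the feedback ligases Rnf43 (3.14) and Znrf3 (2.29). The heart side held the ligands Wnt9b (-6.17), Wnt4 (-2.22) and Wnt5a (-1.62), the receptor Fzd9 (-3.18), and the secreted or putative inhibitors Sfrp5 (-4.17), Dkk3 (-4.01) and Frzb (-3.86), along with Rspo3 (-2.59). Wnt9b, an endocardial ligand that acts on the valve cushions, had 5.88, 7.04 and 9.90 CPM in hearts and at most 0.234 CPM in lungs. Lef1 (1.26) and Wnt4 (-1.26) were not called beyond 2-fold against the other hearts.

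In the FGF pathway 6 of 22 tested members were beyond 2-fold for the lung and 4 for the heart. Both counts are near the shares over all genes (21.3% and 17.3%). The receptor of Fgf10, Fgfr2, had 105, 128 and 153 CPM in lungs and 18.2, 20 and 26.8 CPM in hearts (2.63, SE 0.09, adjusted p = 2.05e-16, edgeR). Its transcriptional effector Etv5 differed by 2.49. The count for the lung was 3 against the other hearts, with library size alone and among homozygous libraries. On the heart side stood Fgf13 (-3.89), an intracellular relative that binds sodium channels, Fgf1, Fgf12 and the feedback inhibitor Spry2 (-1.48, and -0.87 without a call once the length trend was removed).

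Of the BMP and TGF-beta genes, 16 of 47 tested were beyond 2-fold for the lung and 11 for the heart. The heart side held the ligands Bmp10 (-3.76), Tgfb1 (-3.49), Bmp6 (-3.28), Bmp2 (-2.63) and Bmp7 (-2.49) and the endothelial co-receptor Eng (-3.63). The lung side held the receptors Acvr2b (2.98), Acvrl1 (2.14), Acvr2a (2.00), Bmpr1b (1.82) and Bmpr2 (1.82) and the antagonist Chrd (1.97). Of these receptors Acvr2a (0.79), Bmpr1b (0.56) and Bmpr2 (0.53) lost their calls against the other hearts, and Bmpr2 differed by -0.09 with the length trend removed. Against the hearts of other lines 5 members were called for the lung and 9 for the heart, and with the length trend removed 9 and 10. The retinoic acid pathway gave 5 of 17 tested for the lung, including the retinol transporter Stra6 (3.38) and the retinol dehydrogenase Rdh10 (2.74), and 3 for the heart, led by Aldh1a1 (-3.15). These 5 and 3 are not far from the shares over all genes (21.3% and 17.3%). The count for the lung was 3 against the other hearts, with library size alone and among homozygous libraries, and that for the heart was 1 with the length trend removed. Cyp26a1, which breaks retinoic acid down, differed by 1.99 and lost its call in 8 of 20 fits that left out 1 library.

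The heart side was dominated by the contractile apparatus. All 37 tested sarcomere genes of 39 were beyond 2-fold for the heart. Myl2, the regulatory light chain of ventricular myosin, had 3391, 4016 and 4822 CPM in hearts and 0, 0.0394 and 0.357 CPM in lungs. The difference was -15.41 (SE 0.37, adjusted p = 5.1e-19, edgeR). Actc1, cardiac alpha-actin, had 5382, 8375 and 9762 CPM in hearts and 1.43, 4.61 and 9.75 CPM in lungs (-10.80).

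The same held through thick filament, thin filament and Z-disc. Myh7 and Myh6, the slow and fast cardiac myosin heavy chains, differed by -11.43 and -9.36, Tnnt2, cardiac troponin T, by -10.11 and Myl3, the ventricular essential light chain, by -13.43. The least separated member was Ttn (-2.25). This giant elastic filament has the longest transcript of the list, and with the length trend removed its difference was -6.18. Per length, sarcomere genes made up 5.12, 6.87 and 7.5% of rescaled TPM in hearts and 0.0675, 0.0739 and 0.0879% in lungs. On that scale Myl2, Actc1 and Myl7 were the highest genes of the heart after the globins, with medians of 13130, 8885 and 8818 TPM.

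Promoter sequence was examined for the sarcomere genes because they moved together. In the 250 bases before the start, a CArG box, the site of serum response factor, was found in 8 of 33 matched genes (24.2%) and in 1.39% of all 27025 genes of the RefSeq table (build GRCm38.p6). The core of the MEF2 site was in 6 (18.2%, against 3.23% of all), the MCAT site CATTCC in 9 (27.3%, against 12.6%), the GATA site AGATAA in 6 (18.2%, against 10.2%) and the TATA box TATAAA in 4 (12.1%, against 12.9%). Both strands were searched, and a match describes letters and not a bound site. The 150 bases before the start are shown as examples for Nppa and for 3 sarcomere genes that carry a CArG box. They run 5′ to 3′ on the strand of the gene. Of these, Myl7 (-8.03) was less separated than the list median (-8.71). Myl2 (-15.41), the most separated sarcomere gene, had no CArG box. Capitals mark the CArG box in Actc1 (chr2:114052876-114053025, minus strand), the MCAT site and then the CArG box in Myl3 (chr9:110763528-110763677, plus strand) and in Myl7 (chr11:5898783-5898932, minus strand), and the TATA box in Nppa (chr4:148000572-148000721, plus strand).
Actc1: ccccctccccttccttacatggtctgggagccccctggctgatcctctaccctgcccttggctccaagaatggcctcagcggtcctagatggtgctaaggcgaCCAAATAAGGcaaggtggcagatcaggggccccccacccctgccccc
Myl3: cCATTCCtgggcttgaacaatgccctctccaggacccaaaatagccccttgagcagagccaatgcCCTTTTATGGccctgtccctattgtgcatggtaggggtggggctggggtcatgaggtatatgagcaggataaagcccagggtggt
Myl7: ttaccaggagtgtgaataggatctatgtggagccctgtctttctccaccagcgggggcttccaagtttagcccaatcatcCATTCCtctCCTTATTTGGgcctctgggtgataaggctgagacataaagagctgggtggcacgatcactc
Nppa: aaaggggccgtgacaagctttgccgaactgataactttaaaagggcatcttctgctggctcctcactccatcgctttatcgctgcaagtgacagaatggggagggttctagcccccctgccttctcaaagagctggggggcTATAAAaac
The CArG boxes of these 3 sarcomere genes began 47, 85 and 61 bases before the start. The TATAAA of Nppa began only 9 bases before its RefSeq start, and whether it acts as a TATA box was not tested.

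The hormone genes gave the largest difference of the named cardiac genes. Nppa, which encodes atrial natriuretic peptide, had 1765, 2808 and 3351 CPM in hearts, while the 12 lungs together held 7 counts and none exceeded 0.0835 CPM. The difference was -16.47 (SE 0.28, adjusted p = 8.5e-21, edgeR). Its neighbour Nppb differed by -12.81.

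Among 26 cardiac transcription factors and peptides, 15 were beyond 2-fold for the heart and 4 for the lung. Nkx2-5, the NK homeobox factor of the heart, had 160, 271 and 381 CPM in hearts and 0, 0.218 and 1.21 CPM in lungs (-9.54, SE 0.34, adjusted p = 2.75e-16, edgeR). Hand1 differed by -7.22, Hand2 by -4.53, the ventricular factor Irx4 by -8.68, the muscle methyltransferase Smyd1 by -7.19 and Hopx by -6.79. The GATA factors were graded rather than exclusive. Gata4 had 202, 296 and 330 CPM in hearts and 36, 58.8 and 94.2 CPM in lungs (-2.25). Gata6, which acts in both organs, was higher in heart by 1.04 on the log2 scale (SE 0.13, adjusted p = 2.71e-07, edgeR), but not beyond 2-fold (adjusted p = 0.372, edgeR). Gata5 differed by 0.27 and did not pass. The 4 on the lung side were Zfpm2 (2.19), Tbx3 (2.08), Tbx2 (2.00) and Myocd (1.51). Myocd, a coactivator of muscle genes, differed by -0.76 against the other hearts, so that its direction turned, and Zfpm2 differed there by 1.11 and was not called beyond 2-fold.

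Chamber genes of both kinds were on the heart side. Of 13 atrial genes 10 were beyond 2-fold for the heart, among them Myl7 (-8.03), Myl4 (-9.84), the calcium pump regulator Sln (-7.63) and the potassium channels Kcnj3 and Kcnj5 (-5.26 and -5.84). The exception was Nr2f2, an orphan receptor of atria, veins and lung mesenchyme, which was higher in lung by 1.47 and differed by 0.45 against the other hearts. Of 9 ventricular genes 8 were beyond 2-fold for the heart, and the ninth, the proliferation regulator Mycn, differed by 0.65.

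Excitation and energy supply gave a wider range. Of 35 calcium handling and channel genes, 25 were beyond 2-fold for the heart and 2 for the lung. Pln, the inhibitor of the sarcoplasmic calcium pump, had 319, 376 and 454 CPM in hearts and at most 0.664 CPM in lungs (1023-fold), and Casq1, a calcium store protein, differed by -10.03. The release channel Ryr2 was closer, at 28.6, 48.4 and 54.8 CPM in hearts and 9.41, 15.4 and 18.2 CPM in lungs (-1.55). With the length trend removed the Ryr2 difference was -3.75. The pacemaker channel Hcn4 and the calcium exchanger Slc8a1 differed by -0.30 and -0.80, and by -2.67 and -3.61 against the other hearts. On the lung side Cacna1g, a pore subunit of T-type calcium channels, differed by 2.01, and by 0.98 against the other hearts and 0.79 with the length trend removed, without a call beyond 2-fold in either.

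Of 26 genes of cardiac energy metabolism, 24 were beyond 2-fold for the heart. The muscle subunits of cytochrome oxidase led, with Cox6a2 at -12.22 and Cox7a1 at -8.10, together with myoglobin (Mb, -9.44). Ckmt2, mitochondrial creatine kinase, had 3.96, 6.33 and 6.85 CPM in hearts and no count in any of the 12 lungs, and was at least 570-fold higher in heart. Enzymes that all cells use differed less, such as Ldha (-1.94) and Hadha (-1.56), neither called beyond 2-fold against the other hearts (-1.13 and -1.11). Ppara (2.94) was the 1 gene on the lung side and differed by 0.40 against the other hearts. Among 13 mitochondrially encoded genes 8 were beyond 2-fold for the heart, with mt-Nd4 at -3.74, while mt-Co1 differed by -0.51.

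**Figure D4:**
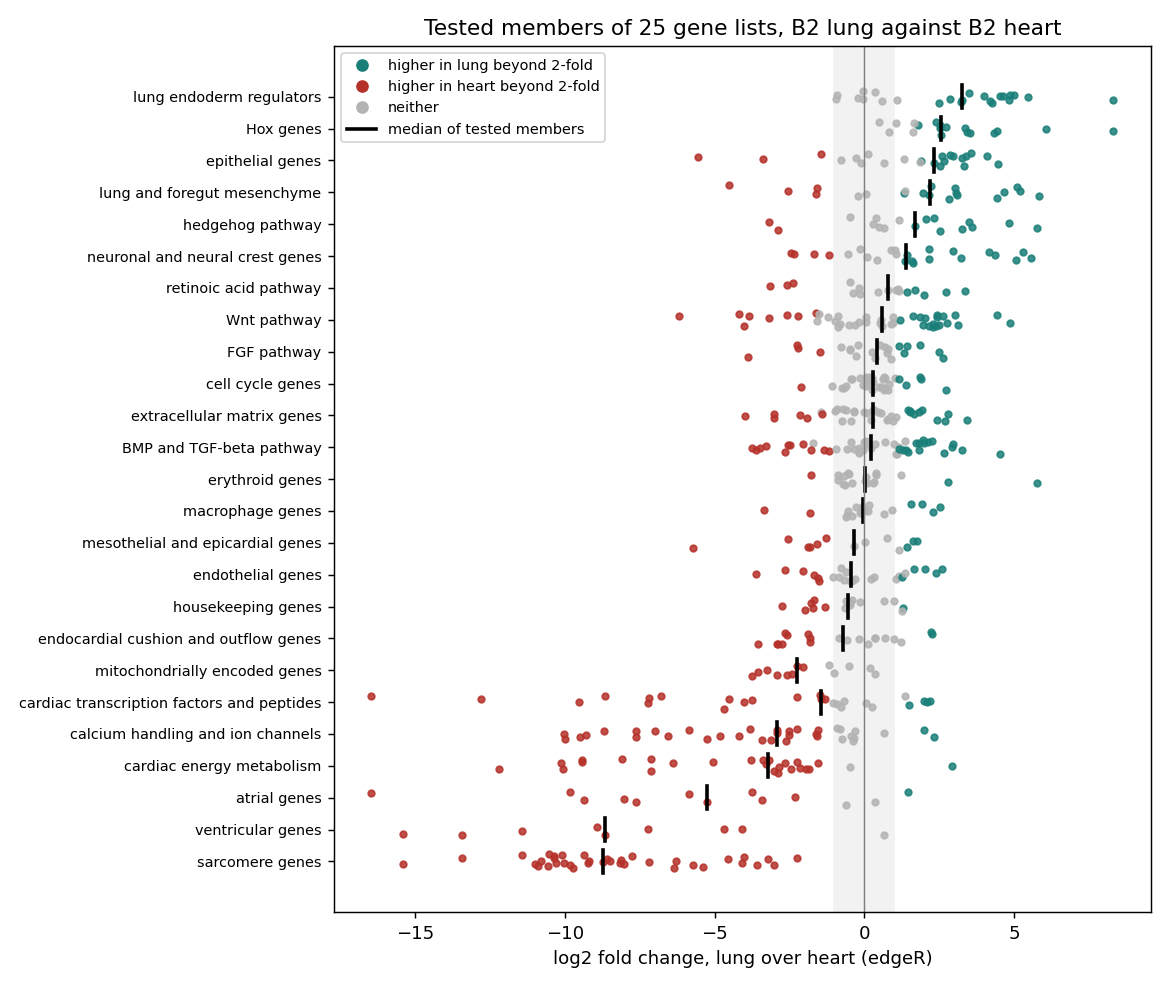
Log2 difference of lung over heart for each tested gene of 25 gene lists, 1 row per list, coloured by the test of 2-fold, with a bar at the median and the band within 2-fold shaded. Sarcomere genes lie wholly on the heart side (median -8.71), Hox genes and lung endoderm regulators lie mostly on the lung side (medians 2.56 and 3.28), and erythroid genes centre near 0.

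Lists of cell types that both organs contain held genes on either side. Of 24 endothelial genes, 5 were beyond 2-fold for the lung and 6 for the heart, with a median of -0.429. The 5 are a share near that over all genes, and were 3 against the other hearts and among homozygous libraries and 8 among nuclear coding genes alone. The junction gene Cldn5 (2.61) and the apelin receptor Aplnr (2.40) were on the lung side, and Eng (-3.63), Plvap (-2.64) and Emcn (-2.06) on the heart side, while Cdh5, which all endothelium expresses, differed by -0.61. Endocardial cushion genes had 9 of 20 on the heart side, including the mesenchymal factor Twist1 (-3.54), Hapln1 (-2.91) and Nfatc1 (-2.87), a factor of valve endocardium. Vcan (2.25) and Notch1 (2.24) were on the lung side, but differed by 0.77 and 0.71 against the other hearts, where neither was called beyond 2-fold.

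Genes of the mesothelium and epicardium, the related linings of lung and heart, gave 3 of 13 for the lung and 6 for the heart. Over all genes the shares were 21.3% and 17.3%, and the 3 for the lung are near the first. Msln, a mesothelial surface protein, was the most heart-sided (-5.72), with 2.49 to 9.48 CPM in hearts and at most 0.252 CPM in lungs. Upk1b differed by -2.55 and the epicardial T-box factor Tbx18 by -1.29. Wt1, which marks both linings, differed by 0.02. The lung side held Sema3d (1.77), Rspo1 (1.63) and Bnc1 (1.45), and Sema3d and Bnc1 lost their calls against the other hearts (0.52 and 0.44).

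Neuronal and neural crest genes lay more on the lung side, with 13 of 24 beyond 2-fold there and 4 on the heart side. Ret, a receptor of enteric neural precursors, had 9.69, 12.2 and 19.8 CPM in lungs and 0.218, 0.441 and 1.82 CPM in hearts (4.36, SE 0.29, adjusted p = 9.72e-12, edgeR), and the organs did not overlap. The crest factor Foxd3 differed by 4.16. Against the other hearts 6 of 23 were called for the lung, and Ret differed by 3.16 and Foxd3 by 2.42. On the heart side were Gata3 (-2.46), Gata2 (-2.35), Stmn2 (-1.68) and Gap43 (-1.19). Gap43 lost its call in 7 of 20 fits that left out 1 library, and on the lung side Phox2a (1.63) in 14 and Nefm (1.37) in 6. Elavl4 (1.43) and Nefm, both called for the lung, changed sign against the other hearts.

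Blood genes were near even by the median member, but not by summed CPM. The erythroid list summed to 9396, 19785 and 36900 CPM in lungs and to 19190, 39080 and 49980 CPM in hearts, ranges that overlapped. Per length it took a median of 9.87% of rescaled TPM in lungs and 10.9% in hearts. Among 19 erythroid genes the median was 0.0294 and 3 passed beyond 2-fold. Among them were Hba-a1 (-1.78) and Hba-a2 (5.76). These are near-identical globin copies between which reads can be split, and their opposite signs are uncertain for that reason. Against the other hearts Hba-a2 differed by -1.32, and with the length trend removed Hba-a1 differed by -0.42, neither of them called. Macrophage genes had a median of -0.054, with Mrc1 (2.53) and Ptprc (2.29) among 4 on the lung side and the lysozyme Lyz2 (-3.36) and Pf4 (-1.81) on the heart side, Pf4 without a call against the other hearts (-1.34). These 4 and 2 were of 20 tested, next to 21.3% and 17.3% over all genes. Liver genes varied widely between libraries of the same organ. Alb ran from 0.0853 to 183 CPM in hearts and from 0 to 11.2 CPM in lungs. The liver list summed to 1286 CPM in heart A58 against 10.1 to 150 CPM in the other hearts. In homozygous lungs it summed to 184 to 412 CPM, except in E5420-05 (45.2 CPM). In wild-type lungs the sum was 15.7 to 74.5 CPM, and this difference between genotypes was not tested. Alb was called for the heart (-3.44), and no longer beyond 2-fold without heart A58 (-1.68) or without A56 (-2.83).

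Proliferation genes did not mark either organ strongly. Of 32 cell cycle genes, 5 were beyond 2-fold for the lung and 1, Ccnd3 (-2.13), for the heart. Mki67, the gene of the proliferation antigen Ki-67, had 129, 594 and 784 CPM in lungs and 72.4, 86.3 and 109 CPM in hearts (2.73). Its transcript is long, and both with the length trend removed and against the other hearts it differed by 1.13 and was not called beyond 2-fold. Against the other hearts none of the 32 was called for the lung beyond 2-fold. The extracellular matrix list was likewise divided, with 10 of 37 for the lung, such as the laminin Lama1 (3.42), and 6 for the heart, such as elastin (Eln, -3.98). Both are near the shares over all genes (21.3% and 17.3%). With the length trend removed the counts were 3 and 9, and against the other hearts 3 and 6. Common reference genes were not level between the organs, since Gapdh was higher in heart by 2.74 on the log2 scale and Actb higher in lung by 1.29.

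Outside the lists, the genes with the largest differences fell into unlike groups. On the heart side the 10 named were Mov10l1, Trim54, Mybphl, Hspb7, Adprhl1, Hspb3, Hspb2, Sh3bgr, Abra and Fsd2. They differed by -9.12 to -11.79, and against the hearts of other lines Mov10l1 differed by -10.84 and Hspb7 by -10.25. Most are muscle genes, as are the small heat shock proteins Hspb2, Hspb3 and Hspb7. Mov10l1, a helicase gene better known from the germ line, had 32.2, 43.9 and 51.1 CPM in hearts and 2 counts in all lungs together, a ratio of 6239 with a counting interval of 1727 to 51525. Hspb7 had 435, 626 and 717 CPM in hearts and at most 0.859 CPM in lungs (-10.77).

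On the lung side the 10 were Lars2, Exph5, Cep85l, Atp7a, Cxcl13, Zfp871, Malat1, Zfp445, Bnc2 and Adamts12. They differed by 5.97 to 9.60, and by 1.32 to 7.25 against the hearts of other lines. Atp7a, a copper transporter, had 12.5, 79.3 and 84.7 CPM in lungs and 0.0426, 0.438 and 0.743 CPM in hearts, a difference of 7.51, and 2.13 against the other hearts. Zfp445 differed by 6.10 and by 1.32, the latter not beyond 2-fold. The chemokine Cxcl13 differed by 7.08 and by 4.55. For these genes too, organ and library type cannot be told apart.

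The families with members in each organ were compared member by member. Of 17 T-box genes 8 were tested, with 5 beyond 2-fold for the lung and 2 for the heart. Tbx4 (5.83), Mga (3.37), Tbx3 (2.08), Tbx2 (2.00) and Tbx1 (1.74) were on the lung side, and Tbx20 (-4.03) and Tbx18 (-1.29) on the heart side. Tbx20, a factor of heart chambers, had 63.6, 98.8 and 116 CPM in hearts and 2.48, 4.66 and 14.5 CPM in lungs. Mga and Tbx1 were not called beyond 2-fold against the other hearts (1.32 and 1.23), and Tbx1 lost its call in 13 of 20 fits that left out 1 library. Among NK homeobox genes Nkx2-1 and Nkx6-1 stood on the lung side and Nkx2-5 on the heart side, of 5 tested. Of the 6 GATA genes Gata2, Gata3 and Gata4 were on the heart side and none on the lung side. Of the 6 Iroquois genes Irx4 (-8.68) and Irx6 (-7.31) were on the heart side, Irx2 was higher in lung by 1.11 without passing 2-fold, and Irx1 and Irx3 did not pass.

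Tbx5 was the tested T-box member that passed the test for neither organ. It encodes the T-box factor of heart and lung mesenchyme and lies at chr5:119832668-119885219 on the plus strand (mm10). It had 63.0, 91.8 and 207 CPM in lungs and 79.2, 95.3 and 116 CPM in hearts, ranges that overlapped. The difference was 0.06 (interval -0.26 to 0.38, adjusted p = 0.72, edgeR), and an exact permutation test of the mean log2 CPM over the 20 libraries, two-sided, gave a difference of 0.05 with p = 0.805. Per length the order was less even, at 41.3, 65.1 and 111 rescaled TPM in lungs and 24.9, 34.3 and 45 rescaled TPM in hearts. With the length trend removed the difference was -0.05. Against the other hearts the difference was 0.45 (adjusted p = 0.0123, edgeR).

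In CPM the mean of the lungs lay above that of the hearts in wild-type libraries and below it in homozygous libraries. Per length, the lowest of the 12 lungs (41.3 rescaled TPM) lay above the heart median (34.3 rescaled TPM). The genotypes were not compared on that scale, so the order below holds for CPM only. Wild-type lungs had 135 ± 44.2 CPM of Tbx5 (SD, n = 6) and homozygous lungs 76.0 ± 9.19 CPM (n = 6), against 98.7 ± 15.2 CPM in wild-type hearts (n = 4) and 93.9 ± 12.3 CPM in homozygous hearts (n = 4). Among wild-type libraries the lungs exceeded the hearts by 0.40 on the log2 scale (p = 0.143, exact permutation test), and by 0.20 without lungs E5420-07 and E5420-09 (p = 0.457, exact permutation test). Among homozygous libraries they lay lower by a difference of -0.30 (p = 0.0286, exact permutation test, where the smallest possible p is 0.00476). The test of the interaction itself gave -0.75 with an unadjusted p of 0.0103 and an adjusted p of 1 (edgeR), and without lungs E5420-07 and E5420-09 it gave -0.51 with an unadjusted p of 0.02 and an adjusted p of 0.513. Over all genes the interaction called 0 of 15381 (0%) at an adjusted p of 0.05 in edgeR, with 463 genes at an unadjusted p under 0.05. DESeq2 called 1 gene, Csrp3 (adjusted p = 0.0123), a muscle LIM protein of the Z-disc. Its 6 wild-type lungs had 0.712 to 1.07 CPM and its 6 homozygous lungs 0.084 to 0.39 CPM, next to 601 to 770 CPM in wild-type hearts and 384 to 644 CPM in homozygous hearts.

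**Figure D5:**
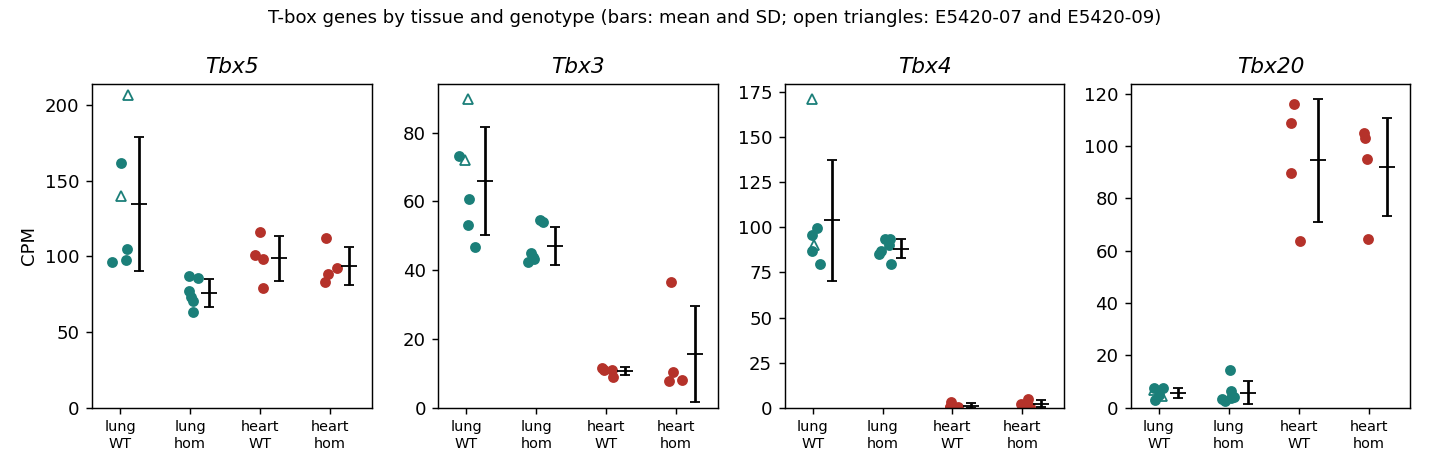
Level of Tbx5, Tbx3, Tbx4 and Tbx20 in CPM by organ and genotype (WT, wild-type; hom, homozygous), with each library as a point, bars for the mean and SD, and lungs E5420-07 and E5420-09 as open triangles. For Tbx5 the homozygous lungs (63.0 to 87.2 CPM) lie under the wild-type lungs (96.5 to 207 CPM) and both ranges meet that of the hearts, while Tbx4 and Tbx20 separate the organs in opposite directions.

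The other genes near the boundary did separate the organs where they were expressed. Tbx3, a T-box repressor, had 42.5, 53.5 and 89.8 CPM in lungs and 7.69, 10.8 and 36.5 CPM in hearts (2.08, SE 0.27, adjusted p = 4.22e-07, edgeR), with the top heart value in A58 and no overlap. Rbm19, which acts in ribosome assembly, had 42.7, 54.5 and 119 CPM in lungs and 13.3, 15.7 and 21.9 CPM in hearts (1.90, SE 0.16, adjusted p = 7.54e-10, edgeR). Lhx5, a LIM homeobox gene of the brain, had 1 count in all lungs and 5 counts in all hearts and was not tested. The mean of the lungs lay above that of the hearts in both genotypes for Tbx3 and Rbm19. Among homozygous libraries alone, 1 of the 3 tested genes near the boundary was called for the lung beyond 2-fold.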

How the data were processed

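Total RNA was isolated from E11.5 organs, and libraries prepared from it were sequenced as paired 150-base reads. The authors mapped reads to mm10 with STAR and quantified gencode M4 genes with RSEM; the kit and strand setting of the libraries are not given in the sources used here. The deposited expected counts per gene, estimated by the authors with RSEM, were rounded to whole numbers. The deposited TPM values, scaled by the authors for transcript length, were used only for levels per length and were rescaled to nuclear protein-coding genes without histones and Lars2.

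Counts of 43346 Ensembl genes in 20 libraries (8391553 to 31793440 counts) were filtered with filterByExpr by organ, scaled by TMM and fitted in edgeR 4.0.16 (R 4.3.3) with genotype and organ as terms. Lung minus heart was tested with glmQLFTest and, beyond 2-fold, with glmTreat, with Benjamini-Hochberg adjustment over 15381 genes at 0.05. Intervals cover 95%. CPM used TMM-scaled library sizes. The script was tested on simulated data. Tbx5 was also tested by exact permutation of log2(CPM + 0.5). A gene with 0 counts in an organ was set to 3 counts over that organ for a lower bound, and ratios with 1 to 3 counts have counting intervals, which cover counting error only. All 42 pairs of libraries within a group differed. Library labels do not state how replicates were raised, so p-values measure the spread between these libraries.

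Genes named in the text were chosen by rule: markers and regulators, from each list up to 4 members with the largest difference beyond 2-fold, up to 10 genes in each direction outside the lists with a mean of at least 10 CPM, and genes near boundary B2; other members of a list are named to describe it, after their values were seen. Some genes that these rules name are counted but not reported here. The members and lists were chosen with earlier results of these data known. Alternatives were other size factors, DESeq2 1.42.0, no filter, single genotypes, hearts of other lines, coding genes alone, each library left out in turn and, added after seeing the data, coding genes without the 2 lungs that stood apart or with a transcript length trend removed. Promoter windows of 250 bases came from RefSeq (GRCm38.p6), which matched 33 of 39 sarcomere genes.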

Additional observations from a re-analysis of the deposited data

Results flagged for a closer look

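In 24 of 120 sets of values of a named gene within an organ and genotype, 1 library lay further from the rest than Dixon's 95% limit allows; chance gives about 1 in 20. Lung E5420-07, a wild-type library with 20.9% of its counts in 7SL and 7SK RNA, was the highest of its set for 9 genes, with Foxa2 at 59.1, Shh at 32.3, Epcam at 84.6, Tbx4 at 171, Foxf1 at 308, Wnt2 at 92.4, Hoxa5 at 88.1, Gata6 at 113 and Myl7 at 16.3 CPM. Lung E5420-09 was the highest for Cdh1, at 41.2 CPM. Lung E5403-10, a homozygous library, stood apart for 6 genes of both organs. It was the lowest for Foxa2 (12.7 CPM), Cdh1 (14 CPM) and Sftpc (0.429 CPM) and the highest for Gata4 (94.2 CPM), Tbx20 (14.5 CPM) and Hand1 (1.33 CPM). Lung E5406-01 was the highest for Myl2, at 0.357 CPM.

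Among the hearts, A57 was the highest of its genotype for Nkx2-1 (1.11 CPM) and Sftpc (0.0445 CPM), A58 for Cdh1 (15.7 CPM) and A60 for Cdh1 (3.67 CPM). Heart A60 was the lowest for Wnt2 (5.5 CPM). Heart A56 was the highest for Tbx4 (3.15 CPM) and the lowest for Tnnt2 (3143 CPM). Each of these values was within its organ's side of the contrast except Cdh1 in heart A58 and lung E5403-10, which overlapped, and Gata6 in lung E5420-07, which lay among the hearts (105 to 124 CPM).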

How the results depend on the processing

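Over 381 genes (the markers and regulators, and members of the lists and other named genes called beyond 2-fold), 12452 values under the alternatives stayed on the same side of the test of 2-fold, 418 lost it, 3 (all Gata6) gained it and 15 changed sign, 6 of them for Tbx5. DESeq2 gave no adjusted p for 18 of these genes, which are left out of these counts for it. Others changed sign against the hearts of other lines (Elavl4 -0.28, Fzd4 -0.21, Hba-a2 -1.32, Inhba -0.73, Myocd -0.76 and Nefm -0.75) or with the length trend removed (Bmpr2 -0.09 and Fbn1 -0.09). The counts of genes moved by over 1.5 times without a filter on low counts (5585 for the lung beyond 2-fold), against the hearts of other lines (1142 for the lung and 1751 for the heart beyond 2-fold) and with the transcript length trend removed (1739 for the lung beyond 2-fold). Leaving out each library in turn gave 6286 to 6856 genes for the lung and 5889 to 6616 for the heart, and 3180 to 3514 and 2589 to 3070 beyond 2-fold. The interaction was called for 1 gene (Csrp3) by DESeq2, and for 0 to 1 genes when single libraries were left out, the 1 call again being Csrp3, without lung E5403-10. The Tbx5 permutation difference was -0.11 without lungs E5420-07 and E5420-09 and -0.30 among homozygous libraries, 0.20 among wild-type libraries without both lungs (chosen after seeing the data), and ran from -0.05 to 0.11 with single libraries left out. In edgeR it ran from -0.04 to 0.13 with single libraries left out, and was -0.12 with library size alone, -0.31 among homozygous libraries, -0.04 without both lungs, -0.05 with the length trend removed, -0.02 without heart A60 and -0.04 without lung E5420-07. The cause of these changes was not tested. Of the list counts 2360 stayed within 1.5 times and 88 moved. Scaling by library size alone moved the median of all genes from 0.06 to -0.09. The shallowest lung, E5420-09, had 8391553 counts, of which Gm42418 and Lars2 held 87.7%. In that library 1 count is 0.75 CPM, which limits genes near 0.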

Other observations

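Lists named for tissues that neither dissection was meant to hold were measured as well. Their members are not limited to those tissues. Gata4 is also in the list of cardiac factors and Hapln1 in that of cushion genes, and Myl1 ran from 54.4 to 136 CPM over the 8 hearts. A call for such a gene does not show that the tissue was present. Of 9 tested skeletal muscle genes, 4 were beyond 2-fold for the heart, namely Myl1 (log2 difference -8.76), Chrng (-5.07), Tnni2 (-4.98) and Tnnt3 (-4.19), and 1, the perinatal myosin Myh8 (1.85), for the lung. The myogenic factors Myod1 and Myog differed by -0.96 and -0.89 and did not pass beyond 2-fold. Chondrogenic genes gave 3 of 10 for each organ, with the collagen Col11a1 (2.66) and the factors Sox5 (2.92) and Sox6 (1.87) on the lung side and Hapln1 (-2.91), Col9a3 (-2.23) and Col9a1 (-1.53) on the heart side. Of 8 urogenital genes, Osr1 (2.82) was on the lung side and Gata4 (-2.25), Six2 (-2.17) and Amhr2 (-1.40) on the heart side. Among 7 tested genes of other endoderm, Foxa3 (3.32) was on the lung side and Krt5 (-2.78), Gata4 and the liver and thyroid factor Hhex (-1.61) on the heart side. None of the 5 sex-linked genes passed beyond 2-fold (edgeR), with Xist at 2.64. Krt5 differed by -1.32 without heart A58 and Six2 by -1.48 without heart A60, neither beyond 2-fold, and Amhr2 lost its call in 13 of 20 fits that left out 1 library. Against the hearts of other lines Col11a1 (1.24), Sox6 (0.50), Col9a1 (-1.31), Col9a3 (-1.34), Amhr2 (-0.81) and Myh8 (1.05) were not called beyond 2-fold either.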
